A study of Homo sapiens with 9 samples.

Results

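The AXL family of receptor tyrosine kinases has 3 members, AXL, TYRO3 and MERTK, and 2 secreted ligands, GAS6 and PROS1. All 5 genes were found by symbol among the 36225 genes of the deposited table, and all 5 were among the 21492 genes with enough counts to be fitted. RNA was measured in the human intrahepatic cholangiocarcinoma line RBE, known to carry a mutant IDH1 allele. Lentivirus had brought in a scramble sequence (control), a hairpin against IDH1 (shIDH1) or a hairpin against JOSD2 (shJOSD2), with 3 libraries in each of the 3 groups. All groups thus share the lentiviral infection, each target stands for 1 group of libraries from 1 cell line, and nothing in the labels tells if libraries within a group stem from separate cultures. Any p-value therefore covers the spread among libraries alone, and that spread may be technical. The members were chosen by their differences between these groups in counts and FPKM values (fragments scaled to transcript length and library size), which had already been seen. Their own values are given as a description, with a standard error but no test.

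AXL, TYRO3 and MERTK are single-pass membrane kinases with paired immunoglobulin-like and fibronectin type III domains outside the cell. GAS6 and PROS1 (protein S) are vitamin K-dependent proteins whose gamma-carboxylated end binds phosphatidylserine on membranes while their other end binds the receptor, so that they bridge a receptor-bearing cell to an apoptotic cell or vesicle. GAS6 binds each of these receptors and is the ligand known for AXL, and PROS1 acts on TYRO3 and MERTK. In epithelial cancers AXL is known for its part in invasion, survival and resistance to kinase inhibitors, and it has been described as a target gene of YAP and TAZ, the coactivators that the series title names.

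The libraries held 66036276 to 71612713 deposited counts each. Low counts peaked at 4, 8 and 12, with 10737 values of 4 against 5505 of 3 and 3780 of 5, a pattern whose source was not tested. If 1 fragment stood for about 4 counts, the sampling error of a low gene would exceed what its count implies. The targeted genes were lower where their hairpin was used. In log2 terms IDH1 stood at -1.80 ± 0.07 from control under shIDH1 (edgeR quasi-likelihood, Benjamini-Hochberg adjusted p = 1.85e-09), and JOSD2 stood at -3.09 ± 0.17 under shJOSD2 (edgeR adjusted p = 1.08e-07). A two-sided exact permutation test on FPKM gave p = 0.1 for each, the smallest possible with 3 against 3. JOSD2 was also 3.73-fold lower under shIDH1 (edgeR adjusted p = 7.69e-07), and IDH1 1.41-fold lower under shJOSD2 (edgeR adjusted p = 8.66e-05). In bulk RNA, fewer cells with a transcript and less of it per cell cannot be told apart. Of 9 biliary markers KRT19 lay between 408 and 599 FPKM in all libraries and CFTR at or under 0.164. In the edgeR test 6 of the 9 changed under shIDH1, 66.7% against 50.1% of all tested genes. Under shJOSD2 7 changed, 77.8% against 38.3%. Under shIDH1 KRT7 was 1.84-fold lower and SPP1 4.47-fold higher. The control libraries were uneven in some hepatocyte transcripts: APOA1 was at 2.91 FPKM in control replicate 1 and at 40.05 and 45.55 in the other control libraries. Results against control are therefore also given below with control replicate 1 as the lone control where that moves them.

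AXL was the most abundant member in every library. It stood at 83.1, 84.8 and 83.4 FPKM in the control libraries, at 38.7, 39.5 and 40.5 in the shIDH1 libraries and at 92.7, 90.0 and 94.5 in the shJOSD2 libraries. The shIDH1 values lay far below the other 6 and within 2 FPKM of each other. On the count scale the 3 groups held 30326 to 31162, 14314 to 15566 and 32237 to 34696 counts. The fitted log2 difference of shIDH1 from control was -1.08 ± 0.055 (SE, 3 libraries per group), a level 2.12-fold lower, and that of shIDH1 from shJOSD2 was -1.08 ± 0.055. Between shJOSD2 and control the direction depended on the scaling: the FPKM values of the groups did not overlap, with shJOSD2 1.10-fold higher, while counts scaled by TMM (edgeR's trimmed mean of M-values, which corrects for libraries of different composition) gave a log2 difference of -0.01 ± 0.05 and overlapping libraries. Scaled that way, AXL stood at 449 to 483 CPM (counts relative to library size) in control and 449 to 469 in shJOSD2. The median of all tested genes in that comparison was 0.03 with TMM and 0.18 with plain library sizes, under which AXL differed by 0.15, so AXL lay close to the median gene under both.

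The AXL gene lies on chromosome 19 (ENSG00000167601, GRCh38, 41219223 to 41261766, plus strand). RefSeq gives it a pair of start sites, and the deposited table sums over both. The 250 bases before each are shown because the difference in AXL cannot be assigned to one of them, and because the series title turns on YAP/TAZ, whose partner TEAD binds the core GGAATG. Capitals mark matches, on either strand, to GGAATG (TEAD), TGANTCA (AP-1) or GGGCGG (Sp1). The first lies before the outer start site (chr19:41218973-41219222, plus strand) and the second before the inner one (chr19:41226505-41226754, plus strand), both from RefSeq on GRCh38.p14, and none of the motifs overlaps another.
AXL outer start: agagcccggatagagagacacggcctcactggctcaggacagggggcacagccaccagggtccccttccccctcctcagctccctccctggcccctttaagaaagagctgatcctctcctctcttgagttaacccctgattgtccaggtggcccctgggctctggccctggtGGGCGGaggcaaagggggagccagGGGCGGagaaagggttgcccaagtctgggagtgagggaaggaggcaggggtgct
AXL inner start: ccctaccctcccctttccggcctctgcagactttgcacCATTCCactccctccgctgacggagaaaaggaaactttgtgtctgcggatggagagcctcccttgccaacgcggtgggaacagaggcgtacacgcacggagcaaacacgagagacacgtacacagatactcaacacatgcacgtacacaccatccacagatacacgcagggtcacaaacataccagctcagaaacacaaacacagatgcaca
The outer window held 2 matches to the Sp1 letters, at 78 to 73 and 54 to 49 bases before the start, and none to the other motifs. The inner window held 1 match to the TEAD core in reverse complement, 212 to 207 bases before the start. Among 35116 RefSeq windows of the same length, 11.9% held the TEAD core, 6.57% the AP-1 letters and 42.6% the Sp1 letters. A match describes the letters and is not a bound site.

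TYRO3 (ENSG00000092445, chromosome 15, 41557675 to 41583589, plus strand), the receptor that PROS1 also binds, was expressed at a much lower level. Its FPKM values were 3.81, 4.55 and 3.82 in control, 2.28, 2.42 and 2.53 in shIDH1 and 4.14, 3.91 and 3.73 in shJOSD2 libraries. Each shIDH1 library lay below each of the other 6, while control and shJOSD2 overlapped. The fitted log2 difference from control was -0.76 ± 0.10 in shIDH1 and -0.20 ± 0.10 in shJOSD2 cells, and between the hairpins it was -0.56 ± 0.10. Reads could in principle be shared with the pseudogene TYRO3P, which held at most 8 counts in a library. Of its RefSeq promoter windows, the one before the outer start held 1 AP-1 match and 3 Sp1 matches, and the other held none.

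MERTK (ENSG00000153208, chromosome 2, 111898607 to 112029561, plus strand), best known as the receptor by which macrophages and retinal pigment epithelium engulf apoptotic material, was near the lower limit of measurement. It stood at 0.257, 0.519 and 0.408 FPKM in control, at 0.281, 0.274 and 0.210 in shIDH1 and at 0.708, 0.504 and 0.704 in shJOSD2 libraries, on 74 to 238 counts per library, fewer fragments still if each stood for several counts. The shIDH1 and shJOSD2 libraries did not overlap, and control lay between them and overlapped both. The log2 difference between shIDH1 and shJOSD2 was -1.16 ± 0.29. Against control it was -0.64 ± 0.29 in shIDH1 and 0.53 ± 0.28 in shJOSD2 cells, and these values rested on the control libraries: against control replicate 1 alone they were 0.03 and 1.18. Leukocyte markers were read beside MERTK because macrophages express it. Of 11 such genes 8 were in the table, the most abundant was the lysosomal protein gene CD68 (17.6 to 31.8 FPKM), PTPRC lay between 0.574 and 1.14 FPKM, and CD163 and MRC1 at or under 0.130 in every library. Their summed level, most of it CD68, was 33.1 to 40.8 FPKM in control, 26.9 to 30.6 in shIDH1 and 26.2 to 34.5 in shJOSD2 libraries. The listed genes did not share an order. LYZ stood at 2.68 to 5.48, 3.05 to 4.20 and 5.00 to 6.81 FPKM in these groups. FCGR3A stood at 0.780 to 0.966, 0.613 to 0.915 and 1.18 to 1.66, and PTPRC at 0.624 to 0.915, 0.574 to 0.837 and 0.838 to 1.14. ITGAM was lowest in shJOSD2, at 0.598 to 0.956, 0.877 to 0.902 and 0.462 to 0.626, and CD68 was highest in control. The part of these markers in the MERTK values was not tested.

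**Figure D1:**
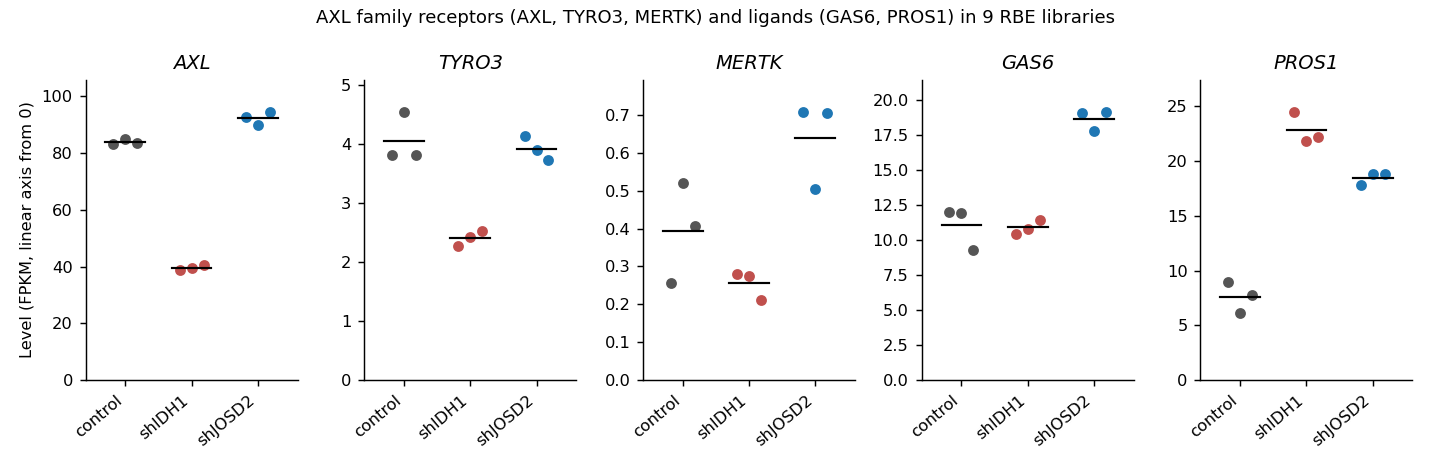
FPKM (linear axis from 0) of each receptor and ligand in the 9 libraries, 1 panel per gene, with points for libraries and a line for the group mean. AXL and TYRO3 are lowest in the 3 shIDH1 libraries, PROS1 is lowest in the 3 control libraries, and GAS6 and MERTK have their highest mean in shJOSD2.

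GAS6, the ligand of AXL, stood at 12.05, 11.95 and 9.32 FPKM in control, at 10.4, 10.8 and 11.5 in shIDH1 and at 19.1, 17.8 and 19.2 in shJOSD2 libraries. The shJOSD2 libraries lay above the other 6, and control and shIDH1 overlapped. The fitted log2 difference from control was -0.03 ± 0.09 in shIDH1 and 0.60 ± 0.09 in shJOSD2 cells, and shIDH1 lay below shJOSD2 by a log2 difference of -0.63 ± 0.09. Without TMM factors the shJOSD2 value was 0.76, against the median gene's 0.18.

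GAS6 (ENSG00000183087, chromosome 13, 113820549 to 113836044, minus strand) lies, as the table bounds it, inside the antisense gene GAS6-AS1 on the plus strand (113815630 to 113845744). The libraries marked strand, but which strand setting was used in counting is not given in the sources read here, so reads of GAS6 and GAS6-AS1 may not have been told apart. GAS6-AS1 followed a like order, at 3.45 to 4.45 FPKM in control, 2.94 to 4.05 in shIDH1 and 5.67 to 6.39 in shJOSD2 libraries. GAS6-DT, a divergent transcript that does not overlap the GAS6 interval and whose start (113864112, plus strand) lies inside the promoter window printed below, stood at 1.66 to 1.99, 0.872 to 1.79 and 3.18 to 3.46 FPKM. For GAS6-DT the log2 difference from control was 0.73 ± 0.22 in shJOSD2 cells, within 1 SE of that of GAS6. The 2 genes lay further apart elsewhere. In shIDH1 cells GAS6-DT was at -0.45 ± 0.23 from control and GAS6 at -0.03 ± 0.09. Between the hairpins they were at -1.18 ± 0.23 and -0.63 ± 0.09. GAS6-AS1 and GAS6-DT were chosen after their values were seen, as neighbours of a member.

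The RefSeq start of GAS6 (113864076) lies 28032 bases outside the interval the table gives, so it is unknown whether reads of the first exons were counted. The 250 bases before that start (chr13:113864077-113864326, minus strand, RefSeq on GRCh38.p14) are shown because GAS6-DT starts inside them and both genes were higher in every shJOSD2 library than in every control library, with capitals as for AXL.
GAS6: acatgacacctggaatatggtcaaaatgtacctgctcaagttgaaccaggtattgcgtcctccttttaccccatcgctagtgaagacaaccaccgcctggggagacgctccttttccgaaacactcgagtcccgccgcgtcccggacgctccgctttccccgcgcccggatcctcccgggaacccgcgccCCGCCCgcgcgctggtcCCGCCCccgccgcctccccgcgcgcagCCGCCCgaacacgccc
This window held 3 matches to the Sp1 letters, all in reverse complement, and none to the TEAD or AP-1 letters. The MERTK window held 4 Sp1 matches and the PROS1 window 2, with none to the other motifs.

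PROS1 (ENSG00000184500, chromosome 3, 93873051 to 93980003, minus strand), which encodes the anticoagulant protein S, was the member with the largest difference from control in both knockdown groups, except that against control replicate 1 alone MERTK differed more in shJOSD2 cells (1.18 against 0.93). Its FPKM values were 8.93, 6.11 and 7.79 in control, 24.5, 21.8 and 22.2 in shIDH1 and 17.8, 18.8 and 18.8 in shJOSD2 libraries. The 3 groups did not overlap, with control lowest and shIDH1 highest. PROS1 was 3.00-fold higher in shIDH1 than in control (log2 difference 1.58 ± 0.10) and 2.20-fold higher in shJOSD2 (1.13 ± 0.10). Between the hairpins the log2 difference was 0.45 ± 0.10 with TMM and 0.30 without TMM factors. The related pseudogene PROS2P held 3 counts in 1 library and 0 in the other 8. Against control replicate 1 alone the PROS1 differences were 1.39 and 0.93.

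Hepatocyte markers were read beside PROS1, which hepatocytes make. The 10 listed genes summed to 43.8 to 90.5 FPKM in control, 99.1 to 102.5 in shIDH1 and 61.9 to 63.9 in shJOSD2 libraries. Of the 10, 2 rose and 3 fell under shIDH1 in the edgeR test, a called share of 50.0% against 50.1% of all tested genes. Under shJOSD2 3 rose and 5 fell, 80.0% against 38.3%. FGB, encoding the fibrinogen beta chain, moved in the order of PROS1, at 1.53 to 1.87 FPKM in control, 41.9 to 44.7 in shIDH1 and 7.01 to 7.35 in shJOSD2 libraries. SERPINA1 also had its lowest values in control, at 33.6 to 37.8 FPKM against 47.5 to 50.2 and 45.5 to 46.8. ALB and APOA1 fell in both knockdowns, though their FPKM ranges overlapped those of control, where replicate 1 was low. The part of these markers in the PROS1 values was not tested.

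Fibroblast markers stood beside PROS1, since stromal cells also secrete it. The summed level of the 8 listed genes was 13.9 to 16.7 FPKM in control, 34.4 to 36.4 in shIDH1 and 32.4 to 33.5 in shJOSD2 libraries. Of 5 tested, 4 rose under shIDH1 and 2 under shJOSD2 in the edgeR test, and 0 fell in either. Among all tested genes 50.1% were called in either direction under shIDH1 and 38.3% under shJOSD2. Higher calls alone made up 24.5% and 18.2%. For calls in either direction, the shJOSD2 count was thus near the background. Most of the sum was the smooth muscle actin gene ACTA2, at 11.7 to 13.8, 26.1 to 28.4 and 27.5 to 28.6 FPKM. Among the other listed genes, PDGFRB was lowest in control, at 0.284 to 0.679, 2.08 to 2.42 and 2.66 to 2.89 FPKM. COL1A1 stood at 1.74 to 2.21, 5.14 to 6.08 and 1.75 to 2.22, and COL1A2 at 0.00220 to 0.0486, 0.0991 to 0.147 and 0.0385 to 0.0616. DCN, LUM, FAP and COL3A1 were at or under 0.0425 FPKM in every library. The part of these markers in the PROS1 values was not tested.

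**Figure D2:**
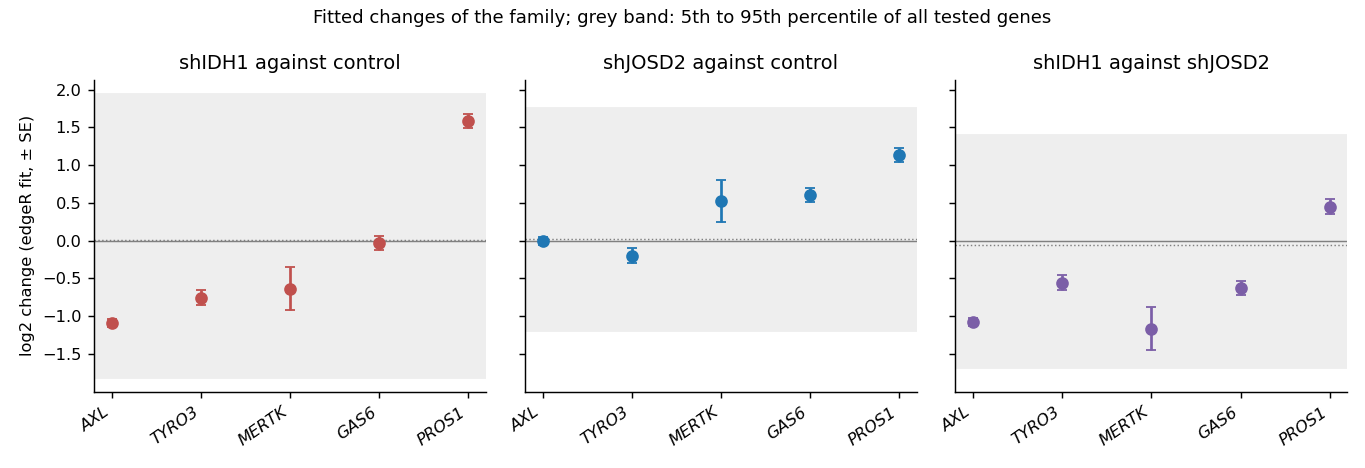
Fitted log2 difference of each member (points, ± SE, 3 libraries per group) in the 3 comparisons, with the 5th to 95th percentile of all 21492 tested genes as a grey band and their median as a dotted line. The values run from -1.16 for MERTK between the hairpins to 1.58 for PROS1 in shIDH1 cells, and all lie inside the band of their comparison.

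Counted by whether the FPKM values of the groups overlapped, 3 of the 5 members were apart between shIDH1 and control, AXL and TYRO3 lower and PROS1 higher, where 56.9% of all tested genes were apart (28.6% higher and 28.3% lower; 57.4% on TMM-scaled counts, where the same 3 members were apart). Between shJOSD2 and control 3 of 5 were apart and higher (AXL, GAS6 and PROS1), where 51.7% of tested genes were apart and 34.2% higher (17.4% lower), and on TMM-scaled counts 2 of 5 were, GAS6 and PROS1, against 50.1%. Between the hairpins all 5 were apart, 4 lower and 1 higher in shIDH1, where 58.4% of tested genes were (20.7% higher and 37.7% lower; 57.4% on TMM-scaled counts, where all 5 were apart too). Since the family was picked with these values in view, nothing is read from the counts. By size, AXL lay at percentile 11.6 and PROS1 at percentile 92.6 of all log2 differences between shIDH1 and control. In shJOSD2 cells AXL lay at percentile 47.3, GAS6 at 78.9 and PROS1 at 89.8. The comparisons with control share their control libraries, so the PROS1 values in the 2 knockdowns are not independent of each other.

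The balance of the family differed between groups. Per length, the 5 genes ranked AXL, GAS6, PROS1, TYRO3 and MERTK in control, and AXL, PROS1, GAS6, TYRO3 and MERTK in shIDH1 cells. In shJOSD2 cells GAS6 and PROS1 were not apart, at 17.8 to 19.2 and 17.8 to 18.8 FPKM. AXL made up 94.4% to 95.3% of the summed receptor FPKM in control, 93.6% to 93.8% in shIDH1 and 95.0% to 95.5% in shJOSD2 libraries. The receptor FPKM summed to 88.2 ± 1.44 in control, to 42.2 ± 0.986 in shIDH1 and to 96.9 ± 2.31 in shJOSD2 (SD, n = 3 each). The ligand sum was 18.7 ± 2.02, 33.7 ± 1.15 and 37.2 ± 0.718 FPKM (SD, n = 3 each). Ligand FPKM per receptor FPKM, a ratio within each library that needs no scaling between libraries, was 0.195 to 0.241 in control, 0.774 to 0.847 in shIDH1 and 0.378 to 0.388 in shJOSD2 libraries. Thus the ratio was higher in both knockdowns than in control, with the receptor sum lower in shIDH1 and the ligand sum higher in both. PROS1 supplied 33.9% to 45.5% of the ligand sum in control, 65.9% to 70.1% in shIDH1 and 48.3% to 51.4% in shJOSD2 libraries. AXL per TYRO3 was 18.6 to 21.8, 16.0 to 17.0 and 22.4 to 25.3.

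**Figure D3:**
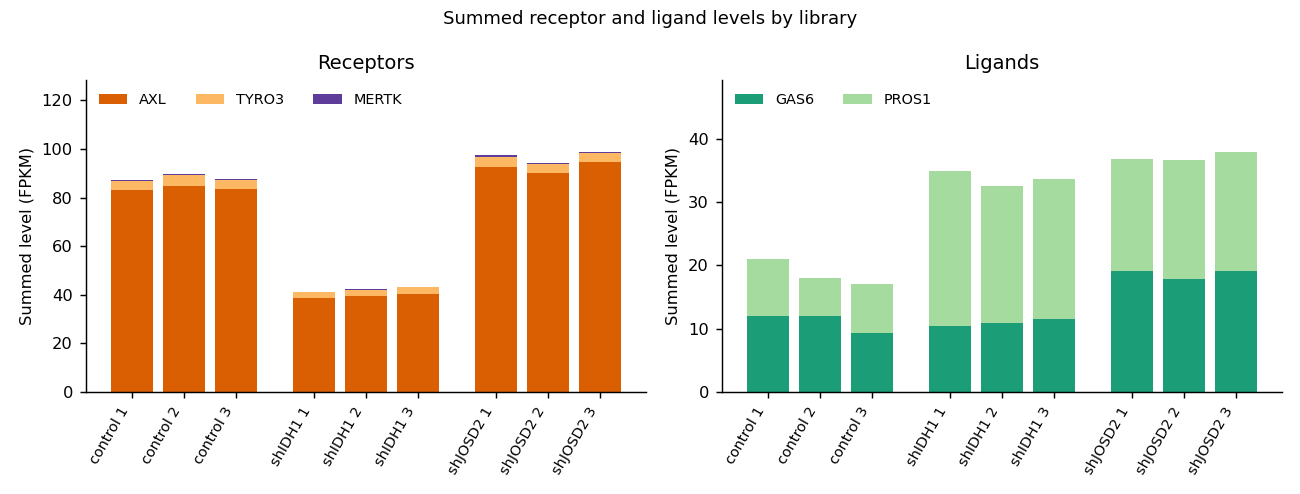
Summed FPKM of the receptors (left) and of the ligands (right) in each of the 9 libraries, stacked by gene. The receptor bars are nearly all AXL and are lowest in the shIDH1 libraries at 41.2 to 43.2, and the ligand bars run from 17.1 to 20.98 in control to 36.6 to 38.0 in shJOSD2.

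Among the receptor tyrosine kinases AXL was one of the most abundant. Of 58 human genes of this class, the family's 3 and 55 others, 56 were in the table. AXL ranked 1 or 2 among them in the control libraries, 4 or 5 in the shIDH1 libraries and 1 in the shJOSD2 libraries. It held 18.6% to 19.8% of the summed FPKM of the class in control, 8.43% to 8.88% in shIDH1 and 21.5% to 22.5% in shJOSD2 libraries. TYRO3 ranked 17 in control and 19 to 22 in the knockdowns, and MERTK 30 to 34. MET, the receptor of hepatocyte growth factor, stood next to AXL in control at 84.1 ± 5.50 FPKM (SD, n = 3), and the 2 did not differ beyond the spread of the MET values.

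The other kinases changed in both directions. Of 45 tested, 17 rose and 12 fell in shIDH1 cells, a called share of 64.4% against 50.1% of all tested genes, 24.5% higher and 25.6% lower (edgeR quasi-likelihood, Benjamini-Hochberg adjusted p under 0.05), with a median log2 change of 0.25 against 0.01 for all genes. MET fell there by 0.94 ± 0.07 (edgeR adjusted p = 4.39e-07), while EPHA2, an ephrin receptor, rose by 0.77 ± 0.07 to 118 FPKM and the collagen receptor gene DDR1 rose by 1.25 ± 0.07 to 57.6 FPKM. EGFR rose by 0.28 ± 0.06 and FGFR4 fell by 0.39 ± 0.07. PDGFRB, a receptor of platelet-derived growth factor, rose from 0.441 to 2.20 FPKM, ROR1 rose by 1.504 ± 0.10 and EPHB1 fell by 1.59 ± 0.15. In shJOSD2 cells 15 rose and 10 fell, 55.6% against 38.3% of all tested genes (18.2% higher, 20.1% lower), with a median of 0.15 against 0.03. MET fell there by 0.68 ± 0.07, EPHA2 by 0.96 ± 0.07 and FGFR4 by 0.76 ± 0.07. DDR1 rose by 0.59 ± 0.07, IGF1R by 0.98 ± 0.09 and EPHB6 by 1.10 ± 0.19, while EGFR, at -0.15 ± 0.06, missed the threshold (edgeR adjusted p = 0.0582). Between the hairpins 14 were higher and 19 lower in shIDH1, 73.3% against 44.8% of all tested genes (20.8% higher, 24.0% lower). EPHA2 was 3.32-fold and INSR 2.69-fold higher in shIDH1 cells, and EPHB1 was 4.08-fold lower.

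**Figure D4:**
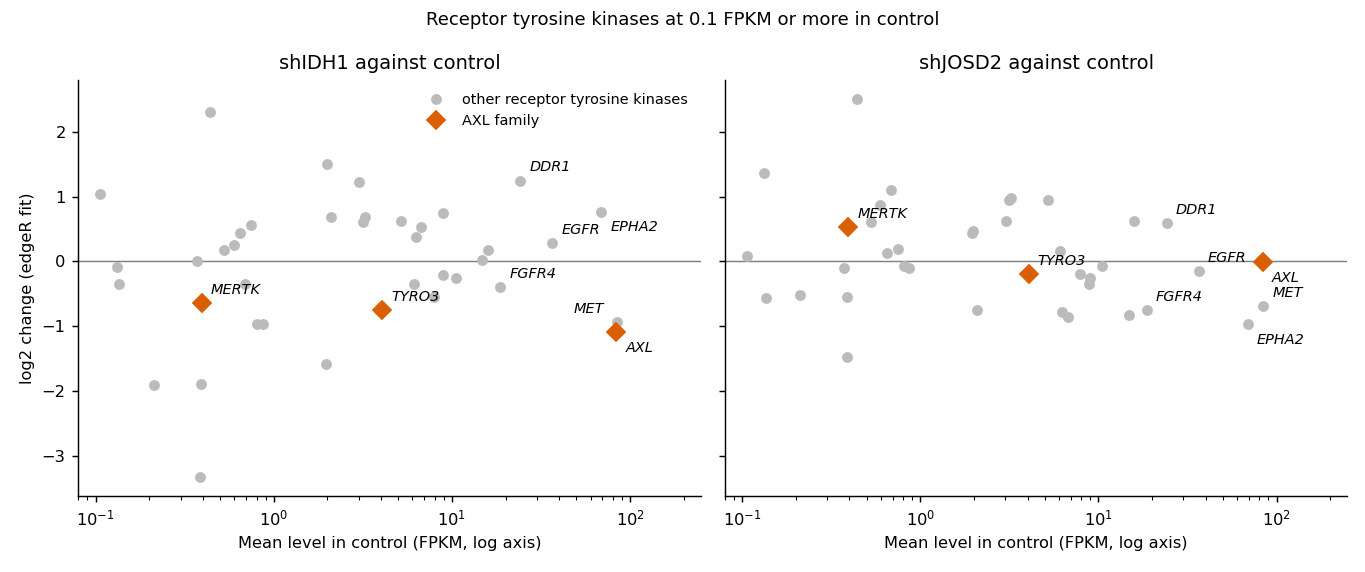
Log2 change against mean control level (FPKM, log axis) for receptor tyrosine kinases at 0.1 FPKM or more in control, in shIDH1 (left) and shJOSD2 cells (right), with the AXL family as diamonds. AXL and MET lie side by side at the right, at -1.08 and -0.94 in shIDH1, while AXL is at -0.01 and MET at -0.68 in shJOSD2.

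Factors that have been described to act on AXL transcription were read next, from a list of 17. In shIDH1 cells 10 rose and 2 fell, 70.6% against 50.1% of all tested genes, with a median log2 change of 0.29 against 0.01 for all tested genes, and higher calls made up 24.5% of all tested genes. TEAD1, a DNA-binding partner of YAP and TAZ, rose by 0.89 ± 0.07 and HIF1A, the hypoxia-inducible factor, by 0.79 ± 0.06. FOSL1, an AP-1 subunit, fell by 0.83 ± 0.10 from 161 to 90.7 FPKM (edgeR adjusted p = 1.69e-05). FOS rose by 0.86 ± 0.28 (edgeR adjusted p = 0.0212), a call that ended with no low-count filter (0.0543) and without control replicate 1, control replicate 3 or shIDH1 replicate 2, with adjusted p values of 0.0524, 0.0735 and 0.0946. YAP1 and WWTR1 (TAZ), at 0.09 ± 0.08 and 0.01 ± 0.09 on the log2 scale, missed the threshold (edgeR adjusted p = 0.384 and 0.958). In shJOSD2 cells 5 rose and 5 fell, 58.8% against 38.3%, with a median of -0.06. Of these 10, 8 had separate FPKM ranges, and the 4 with the largest changes among them were small: MZF1 rose by 0.66 ± 0.13 and TEAD3 by 0.40 ± 0.10, and TEAD4 fell by 0.56 ± 0.12 and JUNB by 0.38 ± 0.09. With control replicate 1 as the lone control MZF1, TEAD3 and TEAD4 were no longer called, with edgeR adjusted p values of 0.0654, 0.113 and 0.166. JUNB was not called with limma on log2(FPKM + 0.1) (adjusted p = 0.0809). YAP1 and WWTR1 stood at -0.17 ± 0.08 and -0.04 ± 0.09 there, short of the threshold (edgeR adjusted p = 0.115 and 0.753). Between the hairpins 7 were higher and 2 lower in shIDH1, 52.9% against 44.8%. TEAD1 was 2.41-fold higher and FOSL1 lower by a log2 difference of -0.58 ± 0.10. YAP1 was higher by 0.26 ± 0.08 (edgeR adjusted p = 0.0180), a call that was lost without shIDH1 replicate 1, shJOSD2 replicate 1 or shJOSD2 replicate 3 (0.0763, 0.0852 and 0.0635), without TMM factors (0.356) and in the 3 limma fits (0.224 to 0.432).

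The ligands need gamma-carboxylation by GGCX, which consumes vitamin K that the reductase VKORC1 regenerates. Of 13 tested genes of this cycle and of other carboxylated proteins, 3 rose and 5 fell in shIDH1 cells, 61.5% against 50.1% of all tested genes, with a median log2 change of -0.43. In shJOSD2 cells 1 rose and 4 fell, 38.5% against 38.3% and so at the background, with a median of -0.03. VKORC1 fell in both, by 1.13 ± 0.11 from 23.1 to 10.6 FPKM in shIDH1 (edgeR adjusted p = 2.42e-06) and by 0.62 ± 0.11 in shJOSD2 cells (edgeR adjusted p = 0.000577). NQO1, a quinone reductase that can also reduce vitamin K, fell by 0.83 ± 0.10 and 1.59 ± 0.10. F10, encoding coagulation factor X, rose by 1.10 ± 0.20 in shIDH1, and PRRG1, a membrane Gla protein gene, by 0.59 ± 0.10 in shJOSD2 cells. PRRG4, of the same small family, rose by 0.89 ± 0.20 in shIDH1 cells, a call lost with control replicate 1 as the lone control (edgeR adjusted p = 0.113). Between the hairpins 3 were higher and 2 lower in shIDH1, 38.5% against 44.8%.

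Phosphatidylserine exposure, which the ligands read, depends on scramblases and on flippases with their subunit TMEM30A. Of 20 tested genes 8 rose and 5 fell in shIDH1 cells, 65.0% against 50.1% of all tested genes, and 8 rose and 6 fell in shJOSD2 cells, 70.0% against 38.3%, with medians of 0.13 and 0.25. TMEM30A fell by 0.80 ± 0.06 and 0.77 ± 0.06 in the 2 knockdowns, and the flippase gene ATP8B1 rose by 1.10 ± 0.07 and 0.77 ± 0.07. PLSCR4, named as a phospholipid scramblase, rose by 1.43 ± 0.13 in shIDH1 cells. In shJOSD2 cells ATP10D rose by 1.44 ± 0.12 and ATP9A fell by 0.91 ± 0.09. Between the hairpins 8 were higher and 6 lower in shIDH1, 70.0% against 44.8%, with NPTN, a partner of the scramblase XKR8, 2.01-fold higher and ATP10D 2.18-fold lower.

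Other phosphatidylserine receptors and bridging molecules share the lipid that the AXL family reads. Of 23 tested, 11 rose and 5 fell in shIDH1 cells, 69.6% against 50.1% of all tested genes, with a median log2 change of 0.33. HAVCR1 (TIM-1), a phosphatidylserine receptor, rose by 2.35 ± 0.11 from 32.5 to 165 FPKM (edgeR adjusted p = 5.69e-09). TIMD4 (TIM-4), of the same family, rose by 2.35 ± 0.30 from 0.628 to 3.21 FPKM, and the integrin gene ITGB3 by 1.61 ± 0.09. C4BPA, the alpha chain gene of C4b-binding protein, rose by 2.50 ± 0.23 from 0.750 to 4.24 FPKM. C4BPB, whose beta chain is the one that binds protein S, fell by 1.87 ± 0.45 from 0.406 to 0.107 FPKM (edgeR adjusted p = 0.00398), and was named after its value was seen. In shJOSD2 cells 5 rose and 6 fell, 47.8% against 38.3%, with a median of -0.01. ITGB3 rose by 1.17 ± 0.09 and LRP1, a scavenger receptor, by 1.11 ± 0.06, while HAVCR1 fell by 0.63 ± 0.11 and HAVCR2 (TIM-3) by 1.08 ± 0.17. Between the hairpins 11 were higher and 5 lower in shIDH1, 69.6% against 44.8%, with HAVCR1 7.88-fold, C4BPA 6.44-fold, TIMD4 4.61-fold and the integrin gene ITGAV 2.83-fold higher.

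AXL and MERTK are shed from the surface by ADAM10 and ADAM17, and gamma-secretase cleaves the remaining stub of AXL. A list of 13 tested genes held ADAM proteases, gamma-secretase subunits, the inactive rhomboids RHBDF1 and RHBDF2 that help ADAM17 mature, and the inhibitor TIMP3. Of these 7 rose and 5 fell in shIDH1 cells, a called share of 92.3% against 50.1% of all tested genes, with a median log2 change of 0.55. ADAM9 rose by 0.76 ± 0.06 to 196 FPKM and ADAM17 by 0.88 ± 0.09 (edgeR adjusted p = 2.75e-06). Among gamma-secretase subunits NCSTN rose by 0.92 ± 0.05 and APH1A fell by 1.13 ± 0.06. The genes that fell also included RHBDF2 and TIMP3, the latter from 0.708 to 0.101 FPKM, so the count is not one of proteases alone. In shJOSD2 cells 2 rose and 5 fell, 53.8% against 38.3% of all tested genes, with a median of -0.09. APH1B rose there by 1.05 ± 0.14 and ADAM9 fell by 0.40 ± 0.06. APH1A fell by 0.33 ± 0.06, and was no longer called with control replicate 1 as the lone control (edgeR adjusted p = 0.0694) or with limma on log2(FPKM + 0.1) (0.0966). Between the hairpins 7 were higher and 5 lower in shIDH1, 92.3% against 44.8%, with ADAM9 2.24-fold and NCSTN 2.09-fold higher.

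Downstream of the receptors, adaptors and effectors changed in both directions. Of 32 tested genes 10 rose and 10 fell in shIDH1 cells, 62.5% against 50.1% of all tested genes, with a median log2 change of -0.01. PIK3R1, a regulatory subunit of phosphoinositide 3-kinase, rose by 1.49 ± 0.09 and the ubiquitin ligase gene CBLB by 1.28 ± 0.13, while the kinase gene MAPK3 (ERK1) fell by 1.45 ± 0.09. In shJOSD2 cells 5 rose and 15 fell, 62.5% against 38.3%, with a median of -0.19, where lower calls made up 20.1% of all tested genes. Among the 15, RAC1, CRK and SOCS3 had FPKM ranges that overlapped those of control. These calls rest on TMM scaling. Without TMM factors the lower calls over all tested genes went from 4330 to 2934, and the numbers of this list under that scaling are not given here. SRC fell by 0.84 ± 0.07 and CBL, a ubiquitin ligase gene, by 0.84 ± 0.08, while PIK3R2 rose by 1.06 ± 0.11. Between the hairpins 14 were higher and 5 lower in shIDH1, 59.4% against 44.8%. SRC was 2.79-fold and IFNAR1, the type I interferon receptor subunit that AXL is known to partner, 2.67-fold higher in shIDH1 cells, and PIK3R2 was 2.33-fold lower.

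**Figure D5:**
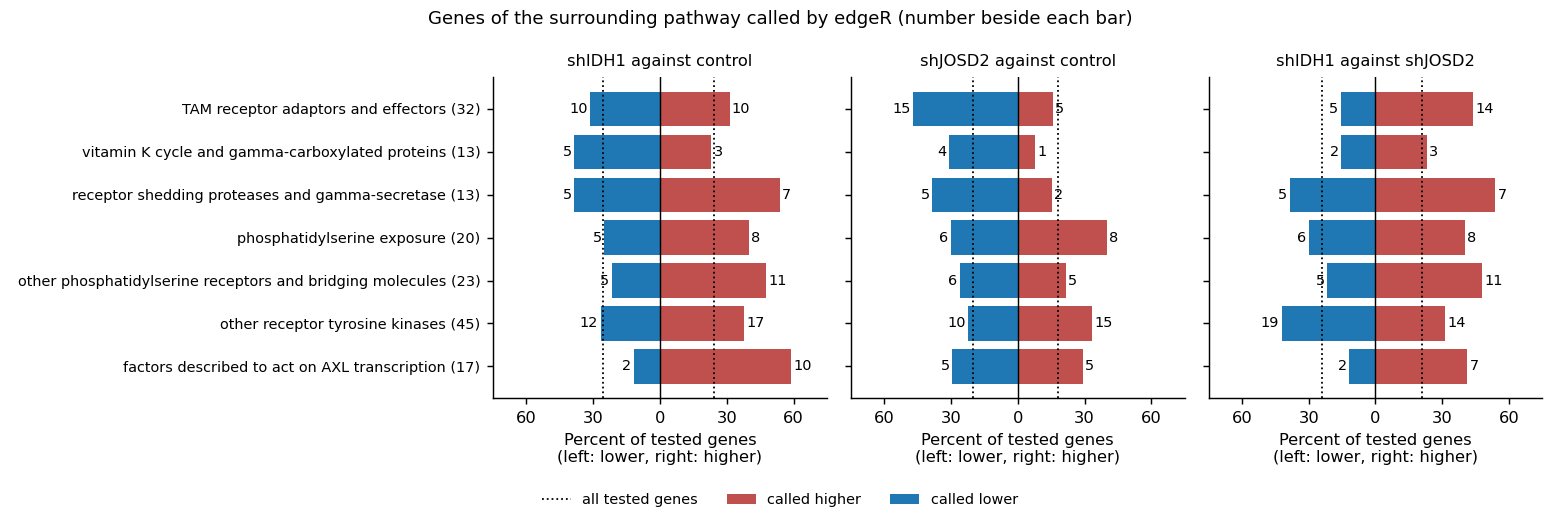
Share of tested genes called higher (right) and lower (left) by edgeR in each of 7 lists around the family, for the 3 comparisons, with the number of genes at each bar, the number tested in brackets and dotted lines at the share of all tested genes. With TMM scaling, the effector list has 15 lower and 5 higher calls in shJOSD2 cells. The list of factors acting on AXL has 10 higher and 2 lower in shIDH1 cells.

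Across the 7 lists, 163 of 178 genes were tested. In shIDH1 cells 66 were called higher and 44 lower, 67.5% against 50.1% of all tested genes. In shJOSD2 cells 41 were higher and 51 lower, 56.4% against 38.3%. Without TMM factors the shJOSD2 numbers were 50 higher and 39 lower, and with limma on log2(FPKM + 0.1) and log2(FPKM + 1) they were 47 and 34, and 46 and 36. Between the hairpins 64 were higher and 44 lower in shIDH1, 66.3% against 44.8%. The excess of higher over lower calls within the lists rested on the scaling: without TMM factors the numbers were 55 and 54, and with limma on log2(FPKM + 0.1) and log2(FPKM + 1) 53 and 53, and 56 and 51. Over all tested genes the same step from TMM to plain library sizes moved 4479 higher and 5156 lower to 3316 and 6653. Of the called genes, 59.3% were higher in the lists and 46.5% over all tested genes with TMM. Without TMM factors these shares were 50.5% and 33.3%, so between the hairpins the lists held the larger share of higher calls under both. In shIDH1 cells against control they did too, at 60.0% against 48.8% with TMM and 60.0% against 48.7% without. In shJOSD2 cells against control the lists held the smaller share, 44.6% against 47.4% with TMM and 56.2% against 65.8% without. The background holds many genes of low level, and its match to these lists in level was not tested.

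Genes whose profile lay nearest to each member were named by the smallest root mean square difference of centred log2 CPM over the 9 libraries, among 11983 genes at 1 FPKM or more. For AXL these were HMGA1 (0.05), GPI (0.07), CALU (0.07), GORASP1 (0.07) and PSKH1 (0.08). HMGA1, an architectural chromatin protein gene, had control, shIDH1 and shJOSD2 means of 351, 156 and 359 FPKM. TYRO3 lay nearest to HGS, EEF1A2 and GPS1, at 0.05 to 0.06. GAS6 was nearest to DMPK (0.05), XYLT2 (0.07) and ZDHHC8 (0.09), and PROS1 to DSC2, PGPEP1 and AC138776, each at 0.08. MERTK, with its low counts, had no neighbour closer than CRABP2 at 0.23. Such likeness over 3 groups of libraries describes these samples, and nothing is said of shared control.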

How the data were processed

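Poly(A) RNA of RBE cells was sequenced as read pairs from strand-marked libraries with unique molecular identifiers, per the labels' protocols. The submitters' processing notes name HISAT2 2.0.4, StringTie 1.3.4d, cutadapt 1.9 and UMI-tools, with the build GRCh38. What each did, the annotation release, the strand setting and whether identifiers were used is not given in the sources used here. The deposited counts are raw whole numbers per gene, and the deposited FPKM values, named so per the file headers, were scaled by the authors to gene length and depth.

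All 9 libraries entered 1 edgeR 4.0.16 fit (R 4.3.3) with a mean per group, filterByExpr, TMM scaling and quasi-likelihood tests, with Benjamini-Hochberg adjustment over 21492 genes at 0.05. Each SE was taken as the size of the log2 change divided by the root of its F statistic. The step was tested on simulated counts. Libraries were grouped by their titles, and no columns were left unmapped. Pairs of replicates differed beyond sampling noise, with a chi-square per gene of 3.61 to 10.1 after division of the counts by 4.

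The members and all gene lists were chosen with earlier results of these data known. From each of 7 lists up to 4 called genes per comparison were eligible to be named, those with the largest change, at least 1 FPKM in one group and FPKM ranges apart. YAP1, WWTR1, the 5 most abundant other receptor tyrosine kinases in control and the genes nearest to each member were also named, and marker genes were read by list. F9, PRRG3, EPHA7 and ROS1 had no row in the table. Some eligible genes are not reported here. Alternatives were DESeq2 1.42.0, limma 3.58.1 on log2 FPKM or TPM, other filters and scalings, counts divided by 4, a replicate block, each library left out, and control replicate 1 as the lone control. Promoter windows came from RefSeq (GRCh38.p14), and protein sequences were not used here.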

Additional observations from a re-analysis of the deposited data

How the results depend on the processing

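Most single alternatives moved a member value by less than the spread between libraries. Against control TYRO3, GAS6 and PROS1 stayed within that spread under every alternative, while AXL and MERTK did not. Between the hairpins every member moved beyond it under at least 1 alternative. The MERTK difference of shIDH1 from control turned from -0.64 to 0.0256 with control replicate 1 as the lone control, and that of shJOSD2 moved from 0.53 to 1.18. For AXL in shJOSD2 cells, -0.01 became 0.15 without TMM factors, 0.14 with limma on log2(FPKM + 0.1), 0.14 on log2(FPKM + 1), 0.0705 on log2(TPM + 1) and 0.0815 with upper quartile factors, which also moved AXL in shIDH1 cells to -0.97. Between the hairpins AXL was -1.23 without TMM factors, -1.22, -1.20 and -1.16 in the 3 limma fits, and PROS1 was 0.30, 0.30, 0.29 and 0.36. There TYRO3 was -0.71 and GAS6 -0.78 without TMM factors, GAS6 was -0.77 on log2(FPKM + 0.1), and MERTK was -0.38 on log2(FPKM + 1) and -0.71 on log2(TPM + 1). The causes of these shifts were not tested beyond the scaling itself, which moved the median gene from 0.03 to 0.18 in shJOSD2 cells.

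Genes called higher in shJOSD2 cells numbered 3907, and 2534 with the lone control. Genes called lower numbered 4330, and 2800 with limma on log2(FPKM + 0.1). Without TMM factors 5638 were higher and 2934 lower. NCSTN in shJOSD2 cells turned to 0.0155 without TMM factors and to 0.00938 and 0.00896 on log2(FPKM + 0.1) and log2(FPKM + 1). Leaving out 1 library at a time moved MERTK between -0.87 and -0.36 in shIDH1 and between 0.29 and 0.80 in shJOSD2 cells. Same-numbered libraries deviated together with a correlation of -0.018 to 0.038 over 9 pairs, against -0.055 to 0.029 over 18 pairs with different numbers. For 5 libraries the best match had their own number. Correlations this small cannot tell whether the numbers pair the libraries. With a replicate block AXL was -1.08 and PROS1 1.59 in shIDH1 cells.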
